A study of Homo sapiens with 4 samples.

Results

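The 50 genes described here carry cells through mitosis: kinases and cyclins that start it, kinetochore proteins that tie chromosomes to the spindle, the checkpoint that watches these attachments, and proteins that separate chromosomes and divide the cell. They were chosen by gene name, and each had 1 row among the 26733 genes of the deposited table. Polyadenylated RNA was sequenced from Jurkat cells, an established line of human T-cell acute lymphoblastic leukaemia, in 2 libraries from GNE987-treated cultures and 2 from untreated Jurkat cells. GNE987 is a degrader that recruits the VHL ubiquitin ligase to BET bromodomain proteins, which help to start transcription. The labels give a dose of 25 nmol with no volume, a time of 24 h, and no vehicle for the untreated cells. Whether replicates were grown separately is not stated in the labels. The p-values reflect the spread among these 4 libraries alone, which may be technical.

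Cyclin B bound to the kinase CDK1 drives cells into mitosis. Kinetochores assemble on nucleosomes that hold the histone variant CENPA, and their NDC80 complex grips microtubules. Kinetochores without a microtubule recruit checkpoint proteins that hold back CDC20 and the anaphase-promoting complex (APC/C), the ubiquitin ligase that frees separase to open the cohesin rings. Transcripts of many of these genes rise in G2 and mitosis, through promoter elements bound by the DREAM and MuvB complexes. In bulk RNA a larger share of cells in mitosis and more transcript per cell cannot be told apart. Levels here are also relative to the other transcripts of a library. A change in total RNA per cell would therefore not be seen, and a rise is a rise in share.

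Total counts per library were between 16041022 and 18938465. The GNE987 pair was the closer one, with a chi-square over genes of 4.55 for each degree of freedom, while for the untreated pair it was 34.0. For 41 of the 43 mitotic genes that changed, the level in untreated replicate 2 was intermediate. The median position over all 43, with untreated replicate 1 as the start and the GNE987 mean as the end, was 17.4%. The same position was not computed over all tested genes, so it is not shown to be particular to mitotic genes. Values without untreated replicate 2 are therefore given beside some of the results it moves, for most of these with those without untreated replicate 1. Other rises moved in the same way, such as that of PLK1. On the log2 scale it was at 1.74 with all 4 libraries and at 2.28 without untreated replicate 2. A value left out thus does not mean that a gene was unmoved. CPM are counts relative to library size, scaled with TMM factors. Of 8 T-cell markers, all tested, 1 rose and 6 fell, and their summed level was 1391 and 1526 CPM in GNE987 libraries, against 2490.3 and 2373 CPM in untreated ones. Of 5 myeloid markers 3 rose (5 without untreated replicate 1 or 2, and 0 without GNE987 replicate 1 or 2), with a median log2 fold change of 3.17, or 7.52 without untreated replicate 2. Their summed level was 142 and 147 CPM in GNE987 libraries, against 0.539 and 29.7 CPM in untreated ones. Summed B-cell markers were at 97.6 and 107 CPM with GNE987, against 41.5 and 51.5 CPM without, fibroblast markers at 8.86 and 8.91 CPM, against 1.17 and 1.93 CPM, and epithelial markers below 1 CPM in all 4 libraries. The part of these markers in the mitotic results was not tested.

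With GNE987 32 of the 50 mitotic genes rose and 11 fell. All 50 were among the 15910 genes tested, of which 71.6% were called, 34.4% as higher and 37.2% as lower (edgeR quasi-likelihood test, adjusted p below 0.05). The libraries of the groups did not overlap for 47 of the 50, where 91.1% of all tested genes did not overlap. The median log2 fold change of the 50 genes was 0.98, against -0.03 over all tested genes. Transcripts of the 50 genes took 0.954% and 0.935% of all counts in the GNE987 libraries, against 0.458% and 0.575% in the untreated ones. At least 2-fold rises were called for 24 of the 50 genes and at least 2-fold falls for 9, beside 24.6% and 27.6% of all tested genes. With library size alone as scaling the median of all tested genes shifted by -0.37, and 29 mitotic genes rose and 12 fell, beside 25.8% and 45% of all tested genes. With upper-quartile scaling it shifted by 0.20, and 35 rose and 10 fell, beside 39.4% and 32.6% of all tested genes. The median of the 50 genes was 0.85 without untreated replicate 1. Without untreated replicate 2, 81.2% of all tested genes were called, 41.1% as higher and 40.1% as lower, and 34 of the 50 rose and 11 fell, with a median of 1.20.

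**Figure D1:**
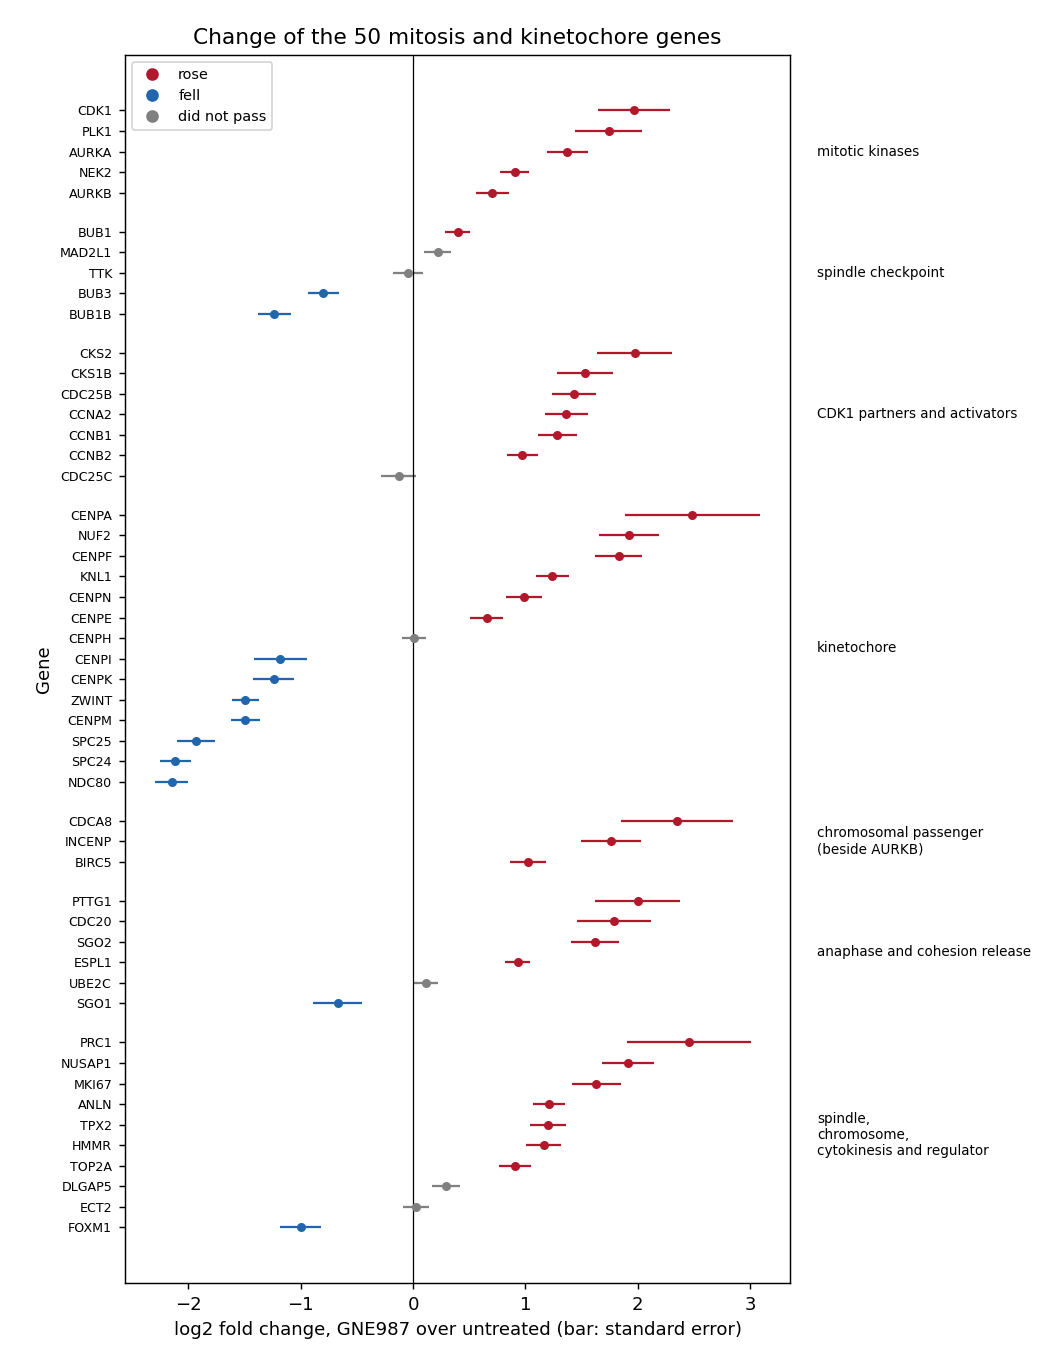
Log2 fold change of GNE987 over untreated cells for each of the 50 genes (x axis), grouped by role, with bars for the standard error. Kinases and chromosomal passenger genes lie on the right of 0, while the 14 kinetochore genes run from CENPA at 2.48 to NDC80 at -2.15.

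The 5 kinases put in this class, CDK1, PLK1, AURKA, AURKB and NEK2, all rose. Some kinases counted in other lists fell: PLK4, of centriole duplication, was at -1.73 ± 0.14 on the log2 scale and HASPIN, a histone kinase, at -1.37 ± 0.13 (adjusted p = 0.0005 and 0.000787). CDK1, the kinase that cyclin B activates, had 762 and 785 CPM in the GNE987 libraries, against 135 and 260.4 CPM in the untreated ones. PLK1, which acts in spindle assembly and cytokinesis, had 335 and 401 CPM with GNE987, against 78.6 and 142 CPM without. AURKA, a kinase of the spindle poles, had 200.3 and 202 CPM with GNE987, against 65.4 and 90.1 CPM without. Both treated libraries were above both untreated ones for each of these kinases, and untreated replicate 2 was the higher of the untreated pair. The log2 fold changes were 1.97 ± 0.32 (SE) for CDK1, 1.74 ± 0.30 for PLK1 and 1.37 ± 0.18 for AURKA, with adjusted p-values of 0.00398, 0.00472 and 0.00219.

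Smaller rises were found for NEK2, a kinase of centrosome separation, and AURKB, the kinase of the chromosomal passenger complex. NEK2 had 74.0 and 69.9 CPM with GNE987, against 35.6 and 41.3 CPM without, a log2 fold change of 0.90 ± 0.13 (adjusted p = 0.00262). AURKB had 133 and 147 CPM with GNE987, against 77.4 and 94.4 CPM without, a log2 fold change of 0.70 ± 0.15 (adjusted p = 0.00861). AURKB lost its call without GNE987 replicate 1 (adjusted p = 0.0628), without GNE987 replicate 2 (0.0931) and with library size alone (0.0678). On the log2 scale CDK1 was at 2.57 without untreated replicate 2 and at 1.57 without untreated replicate 1.

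CDK1's partners followed the same direction in 6 of 7 cases. CCNB1, the main mitotic cyclin, had 472 and 481 CPM in GNE987 libraries, against 169 and 223 CPM in untreated ones. CCNA2, cyclin A of S and G2 phase, had 360 and 394 CPM with GNE987, against 122 and 170.4 CPM without. CKS2, a small subunit that helps CDK1 bind substrates, had 502 and 471 CPM with GNE987, against 83.2 and 165 CPM without. None of these groups of libraries overlapped. Log2 fold changes were 1.28 ± 0.17 for CCNB1, 1.36 ± 0.19 for CCNA2 and 1.97 ± 0.33 for CKS2 (adjusted p = 0.00228, 0.00268 and 0.00436). CKS2 was at 2.60 without untreated replicate 2 and at 1.56 without untreated replicate 1. The related CCNB2 and CKS1B were at 0.97 ± 0.14 and 1.53 ± 0.25.

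The CDC25 phosphatases, which remove inhibitory phosphates from CDK1, differed in their calls. CDC25B had 308 and 330.4 CPM with GNE987, against 98.0 and 139 CPM without, and rose by 1.43 ± 0.20 on the log2 scale (adjusted p = 0.00247). CDC25C had 13.5 and 12.3 CPM with GNE987, against 14.2 and 14.0 CPM without, a log2 fold change of -0.13 ± 0.15 that did not pass (adjusted p = 0.477). The difference between them was not tested. CDC25C shares 293 of its 3338 exonic bases with FAM53C on the opposite strand, which had 670 and 719 CPM in GNE987 libraries, against 57.4 and 191 CPM in untreated ones, and the kit named in the labels does not mark strand.

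The spindle checkpoint had no common direction: 1 gene rose, 2 fell and 2 did not pass. BUB1B, which encodes the checkpoint protein BUBR1, had 30.5 and 24.7 CPM in GNE987 libraries, against 68.3 and 61.7 CPM in untreated ones. BUB3, the partner of BUB1 and BUBR1, had 123 and 119 CPM with GNE987, against 227 and 193 CPM without. Treated libraries were below untreated ones for both genes, with log2 fold changes of -1.23 ± 0.15 and -0.80 ± 0.14 (adjusted p = 0.00171 and 0.00453). The kinase BUB1 moved the other way, to 111 and 106 CPM with GNE987, against 80.9 and 84.3 CPM without, a log2 fold change of 0.40 ± 0.11 (adjusted p = 0.0219).

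MAD2L1, which encodes the protein MAD2 that holds CDC20, had 142 and 135 CPM in GNE987 libraries, against 123 and 115 CPM in untreated ones (adjusted p = 0.143). TTK, the kinase that starts checkpoint signalling, had 33.2 and 28.9 CPM with GNE987, against 33.5 and 30.7 CPM without, with overlapping libraries and a log2 fold change of -0.05 ± 0.13 (adjusted p = 0.762). Within a library, the count of BUB1 was 3.64 and 4.31 times that of BUB1B with GNE987, against 1.18 and 1.37 times without. Without GNE987 replicate 1 or 2, BUB1 (adjusted p = 0.186 and 0.14) and BUB3 (0.062 and 0.0693) did not pass, and BUB1 did not pass with library size alone (0.867), without a filter on low counts (0.163) or with the replicate block (0.0536) either. MAD2L1 passed as higher without untreated replicate 1 (adjusted p = 0.0132) or 2 (0.0339), with upper-quartile scaling (0.025), with the 10 CPM filter (0.0215) and with DESeq2 (0.0369).

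**Figure D2:**
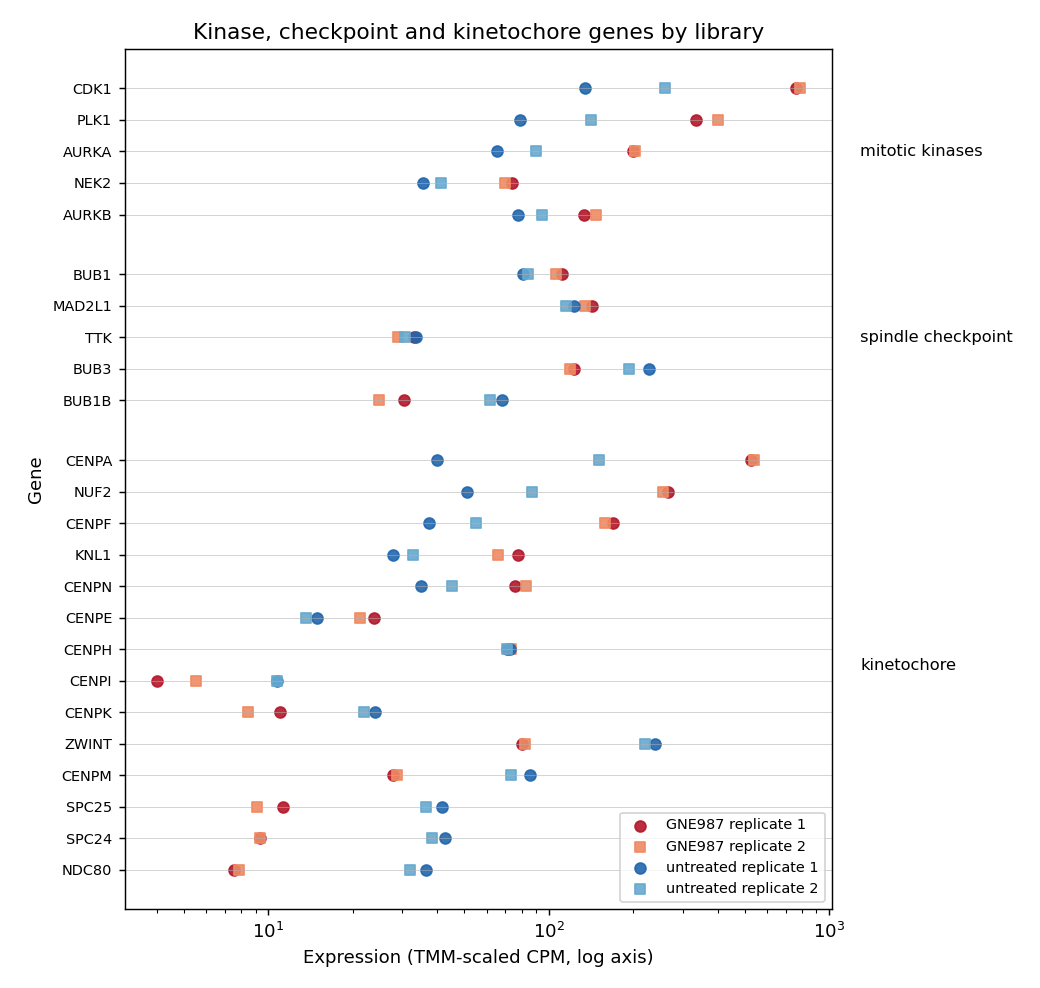
Expression in TMM-scaled CPM (log axis) of the 5 kinase, 5 checkpoint and 14 kinetochore genes, with 1 point per library. GNE987 points lie right of the untreated points for the kinases and on either side of them for kinetochore genes, such as NUF2 at 267 and 256 CPM with GNE987, right of its untreated points, and NDC80 at 7.55 and 7.83 CPM, left of them.

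Kinetochore genes split into 6 that rose, 7 that fell and 1, CENPH, that did not pass. Their log2 fold changes ran from 2.48 to -2.15 with a median of -0.59. Of all tested genes 34.4% rose and 37.2% fell, so a split in both directions is not particular to these genes. The split ran through single complexes. The NDC80 complex is built of the proteins NDC80, NUF2, SPC24 and SPC25, and NUF2 pairs with NDC80 along a coiled coil while SPC24 and SPC25 form the end that faces the chromosome. Of these 4 genes NUF2 rose and 3 fell.

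NDC80 (ENSG00000080986, chr18:2571511-2616635, GRCh38) had 7.55 and 7.83 CPM in GNE987 libraries, against 36.4 and 31.9 CPM in untreated ones. SPC24 (chr19:11131520-11155808) had 9.32 and 9.35 CPM with GNE987, against 42.6 and 38.3 CPM without. SPC25 (chr2:168834132-168913371) had 11.3 and 9.13 CPM with GNE987, against 41.6 and 36.5 CPM without. These 3 genes were low in both treated libraries, and the replicates of each group lay close together. Their log2 fold changes were -2.15 ± 0.15, -2.11 ± 0.14 and -1.93 ± 0.17, with adjusted p-values of 0.000362, 0.000329 and 0.000584.

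NUF2 (ENSG00000143228, chr1:163266576-163355764) had 267 and 256 CPM in GNE987 libraries, against 51.0 and 86.9 CPM in untreated ones, a log2 fold change of 1.92 ± 0.27 (adjusted p = 0.00251). It was at 2.41 without untreated replicate 2 and at 1.59 without untreated replicate 1. In the deposited FPKM, which are scaled by length, NUF2 was at 78.2 and 75.3 with GNE987, against 15.2 and 25.1 without. NDC80 was at 2.07 and 2.15 FPKM with GNE987, against 10.1 and 8.61 FPKM without. The count of NUF2 was thus 35.3 and 32.7 times that of NDC80 with GNE987, against 1.40 and 2.73 times in untreated libraries, a ratio that no scaling between libraries can change. The count of SPC24 was 1.23 and 1.19 times that of NDC80 with GNE987, against 1.17 and 1.20 times without. An exact two-sided permutation test of the NUF2 to NDC80 ratio gave p = 0.333, which is the smallest that 2 against 2 libraries allow, and that of SPC24 to NDC80 gave p = 0.667. These ratios were chosen after the values were seen.

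**Figure D3:**
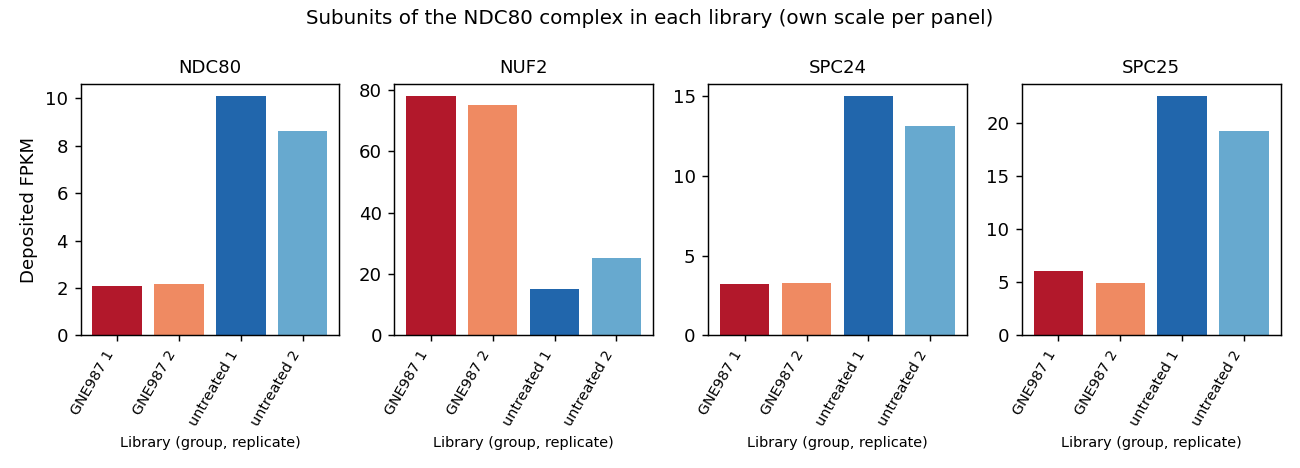
Deposited FPKM of the 4 genes of the NDC80 complex in each library (bars, 1 per library, own scale in each panel, starting at 0). NUF2 is highest in the GNE987 libraries at 78.2 and 75.3 FPKM, while NDC80, SPC24 and SPC25 are highest in the untreated ones.

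The promoters of these 4 genes are shown because their products share a complex and their transcripts moved in opposite directions, and those of CENPA and CDCA8 because these had the largest rises beside PRC1. The sequences are from RefSeq on GRCh38.p14, from 250 bases before to 30 bases after the start, in the direction of the gene. Capitals mark the letters TTTGAA (the cell cycle homology element bound by DREAM and MuvB), TTCGAA (a variant of it), CCAAT (bound by NF-Y), CACGTG (the E box) and TTTGGCGC or TTTCCCGC (E2F-type sites), on either strand.
NDC80, chr18:2571307-2571586, plus strand: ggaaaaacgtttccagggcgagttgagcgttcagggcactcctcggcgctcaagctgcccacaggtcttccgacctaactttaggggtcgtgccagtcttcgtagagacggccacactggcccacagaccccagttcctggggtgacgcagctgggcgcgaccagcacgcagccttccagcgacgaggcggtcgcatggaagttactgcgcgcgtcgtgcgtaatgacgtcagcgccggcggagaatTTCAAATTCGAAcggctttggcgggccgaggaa
NUF2, chr1:163321704-163321983, plus strand: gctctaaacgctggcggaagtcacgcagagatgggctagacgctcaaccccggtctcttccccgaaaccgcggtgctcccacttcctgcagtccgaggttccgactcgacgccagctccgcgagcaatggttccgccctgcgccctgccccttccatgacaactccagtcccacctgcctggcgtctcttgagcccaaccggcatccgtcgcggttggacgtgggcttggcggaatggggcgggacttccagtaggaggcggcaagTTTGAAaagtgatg
SPC24, chr19:11155753-11156032, minus strand: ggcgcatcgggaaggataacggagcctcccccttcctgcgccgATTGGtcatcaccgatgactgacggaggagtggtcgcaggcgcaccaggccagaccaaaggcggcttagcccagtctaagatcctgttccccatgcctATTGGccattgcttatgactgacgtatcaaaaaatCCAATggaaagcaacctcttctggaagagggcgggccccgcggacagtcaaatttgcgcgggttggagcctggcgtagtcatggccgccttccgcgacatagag
SPC25, chr2:168890401-168890680, minus strand: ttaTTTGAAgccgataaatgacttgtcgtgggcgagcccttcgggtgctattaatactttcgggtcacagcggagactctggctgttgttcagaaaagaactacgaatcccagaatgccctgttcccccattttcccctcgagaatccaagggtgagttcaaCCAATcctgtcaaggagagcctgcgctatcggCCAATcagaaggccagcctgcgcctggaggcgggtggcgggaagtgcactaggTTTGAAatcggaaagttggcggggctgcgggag
CENPA, chr2:26785806-26786085, plus strand: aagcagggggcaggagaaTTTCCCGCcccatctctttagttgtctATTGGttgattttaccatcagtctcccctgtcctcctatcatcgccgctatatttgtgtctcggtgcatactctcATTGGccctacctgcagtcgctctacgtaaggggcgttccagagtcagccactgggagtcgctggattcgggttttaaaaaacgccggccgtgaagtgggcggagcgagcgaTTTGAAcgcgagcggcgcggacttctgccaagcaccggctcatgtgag
CDCA8, chr1:37692266-37692545, plus strand: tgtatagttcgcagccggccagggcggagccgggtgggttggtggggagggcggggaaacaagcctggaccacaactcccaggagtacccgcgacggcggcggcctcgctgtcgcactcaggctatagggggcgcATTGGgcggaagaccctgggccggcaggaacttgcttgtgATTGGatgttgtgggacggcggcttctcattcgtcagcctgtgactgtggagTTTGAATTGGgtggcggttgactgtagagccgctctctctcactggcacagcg

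NDC80 had TTTGAA on the reverse strand across the start, next to TTCGAA, and no CCAAT. NUF2 had TTTGAA from base 17 after the start and no CCAAT either. SPC24 had 3 CCAAT and no TTTGAA, and SPC25 had 2 of each. CENPA and CDCA8 had TTTGAA at 18 and 23 bases before the start, which in CDCA8 shares its last letter with a reverse CCAAT. NUF2, which rose, and NDC80, which fell, thus both had TTTGAA and no CCAAT at the start searched, though at other positions and strands. Whether these letters have a part in the changes was not tested. A match of letters is a description and not a binding site.

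RefSeq promoters were at hand for 40 of the 50 genes, and the first one listed was searched from 250 bases before to 50 bases after the start, on both strands. TTTGAA was present in 65% of these 40 promoters and CCAAT in 80%, against 15.4% and 35.7% of the promoters of all 27305 genes listed. Among the 28 promoters of genes that rose 67.9% held TTTGAA and 85.7% held CCAAT, and among the 8 of genes that fell 50% and 62.5% did. The E box was found in 15% of the 40 and in 7.43% of all, TTCGAA in 7.5% and 1.45%, TTTGGCGC in 2.5% and 0.659%, and TTTCCCGC in 2.5% and 1.66%. Among the 10560 promoters of genes tested here, 9.55% held TTTGAA, 36.4% CCAAT, 10.2% the E box, 1.69% TTCGAA, 1.12% TTTGGCGC and 2.6% TTTCCCGC. The share of TTTCCCGC in the mitotic genes, which is 1 promoter, was thus no higher than in tested genes.

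Among the other kinetochore genes, CENPA, the histone variant that marks the centromere, had 528 and 539 CPM in GNE987 libraries, against 40.0 and 151 CPM in untreated ones. CENPF, a large outer kinetochore protein, had 170 and 158 CPM with GNE987, against 37.3 and 55.0 CPM without. KNL1, the scaffold that docks checkpoint proteins, had 77.5 and 66.0 CPM with GNE987, against 27.9 and 32.9 CPM without. All 3 were higher in both treated libraries, and CENPA differed most between the untreated ones. Log2 fold changes were 2.48 ± 0.60 for CENPA, 1.83 ± 0.21 for CENPF and 1.24 ± 0.15 for KNL1 (adjusted p = 0.0144, 0.00141 and 0.00164). Leaving out untreated replicate 1 put CENPA at 1.82. CENPA was at 3.79 without untreated replicate 2 and did not pass with robust estimation (adjusted p = 0.067), without GNE987 replicate 1 (0.0731) or without GNE987 replicate 2 (0.075).

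ZWINT, which binds KNL1, fell although KNL1 rose: it had 80.4 and 82.4 CPM in GNE987 libraries, against 239 and 219 CPM in untreated ones, a log2 fold change of -1.49 ± 0.12 (adjusted p = 0.000515). The motor CENPE had 23.7 and 21.2 CPM with GNE987, against 14.9 and 13.6 CPM without (0.65 ± 0.14, adjusted p = 0.0105). CENPE did not pass with library size alone (adjusted p = 0.214), without GNE987 replicate 1 (0.0914) or without GNE987 replicate 2 (0.0568).

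Of 5 genes of the inner kinetochore network that stays on centromeres through the cell cycle, 1 rose and 3 fell. CENPM had 27.8 and 28.6 CPM in GNE987 libraries, against 85.5 and 73.6 CPM in untreated ones, and CENPN, which reads the CENPA nucleosome, had 75.8 and 82.8 CPM with GNE987, against 34.9 and 45.1 CPM without. The log2 fold changes were -1.49 ± 0.13 for CENPM and 0.99 ± 0.16 for CENPN (adjusted p = 0.000588 and 0.00387). CENPN shares 457 of its 3568 exonic bases with CMC2 on the opposite strand, which had 130.2 and 137 CPM with GNE987, against 46.2 and 62.4 CPM without. CENPK was at -1.24 ± 0.18 and CENPI at -1.18 ± 0.24, and CENPI did not pass without GNE987 replicate 1 (adjusted p = 0.0528). CENPH, which binds CENPK, had 70.8 and 73.5 CPM with GNE987, against 72.6 and 71.0 CPM without, so its libraries overlapped (log2 fold change 0.01 ± 0.11, adjusted p = 0.961). With library size alone, where the median of all tested genes shifted by -0.37, CENPH was at -0.37 and passed as lower (adjusted p = 0.0424).

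The chromosomal passenger complex, which corrects faulty attachments, rose in each of the 3 genes beside AURKB. CDCA8, which encodes borealin, had 946 and 1028 CPM in GNE987 libraries, against 99.2 and 288 CPM in untreated ones. INCENP, the scaffold, had 398 and 407 CPM with GNE987, against 87.7 and 150.0 CPM without. BIRC5, which encodes survivin, had 397 and 412 CPM with GNE987, against 176 and 223 CPM without. The treated libraries lay above the untreated ones for all 3 genes, and the untreated pair was farthest apart for CDCA8. On the log2 scale they changed by 2.35 ± 0.50, 1.76 ± 0.27 and 1.02 ± 0.16 (adjusted p = 0.00907, 0.00328 and 0.00356). Leaving out untreated replicate 1 put CDCA8 at 1.78. CDCA8 was at 3.37 without untreated replicate 2, and did not pass without GNE987 replicate 1 (adjusted p = 0.0548) or 2 (0.0602).

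Of 6 genes of anaphase and cohesin release 4 rose and 1 fell (median log2 fold change 1.27). Without GNE987 replicate 2 fewer of them were called, as were fewer of all tested genes, and their median was 1.30. CDC20, the activator of the APC/C, had 857 and 937 CPM in GNE987 libraries, against 175 and 344 CPM in untreated ones. PTTG1, which encodes securin, the inhibitor of separase, had 538 and 554 CPM with GNE987, against 84.7 and 189 CPM without. ESPL1, separase itself, had 103 and 103 CPM with GNE987, against 51.2 and 56.7 CPM without. Securin was the gene of this pair with the larger fold, and CDC20 and PTTG1 were also higher in untreated replicate 2 than in untreated replicate 1. Log2 fold changes were 1.79 ± 0.33 for CDC20, 2.00 ± 0.38 for PTTG1 and 0.93 ± 0.11 for ESPL1 (adjusted p = 0.00571, 0.00641 and 0.00178). Leaving out untreated replicate 1 put CDC20 at 1.38 and PTTG1 at 1.53. CDC20 and PTTG1 were at 2.41 and 2.74 without untreated replicate 2, and did not pass without GNE987 replicate 2 (adjusted p = 0.0505 and 0.0507).

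The shugoshins, which protect cohesin at centromeres, were called in opposite directions. SGO2 had 186 and 174 CPM in GNE987 libraries, against 46.9 and 70.4 CPM in untreated ones (log2 fold change 1.62 ± 0.21, adjusted p = 0.00219). SGO1 averaged 10.4 ± 2.72 CPM with GNE987 and 16.5 ± 0.78 CPM without (SD, n = 2 each), and the libraries did not overlap (-0.67 ± 0.22, adjusted p = 0.0383). The count of SGO2 was 22.0 and 14.1 times that of SGO1 with GNE987, against 2.94 and 4.12 times without. SGO1 did not pass with RLE factors (adjusted p = 0.0593), upper-quartile scaling (0.11), a filter of 10 CPM (0.0906) or DESeq2 (0.101), or without GNE987 replicate 1 (0.174), and it shares 679 exonic bases with the antisense gene SGO1-AS1. UBE2C, the ubiquitin-conjugating enzyme of the APC/C, had 89.3 and 91.6 CPM with GNE987, against 81.7 and 85.6 CPM without (adjusted p = 0.38), and it passed as higher with upper-quartile scaling (0.0483) and the 10 CPM filter (0.0478).

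Genes of the spindle, chromosome structure and cytokinesis rose in 7 of 10 cases. MKI67, the proliferation marker that coats mitotic chromosomes, had 295 and 272 CPM in GNE987 libraries, against 73.7 and 109 CPM in untreated ones. TPX2, which activates AURKA on the spindle, had 462 and 451 CPM with GNE987, against 175 and 223 CPM without. TOP2A, the topoisomerase that untangles chromosomes, had 436 and 392 CPM with GNE987, against 209 and 233 CPM without. The treated libraries were the higher ones for all 3, with log2 fold changes of 1.63 ± 0.22, 1.20 ± 0.16 and 0.91 ± 0.14 (adjusted p = 0.00217, 0.0023 and 0.00326), and TOP2A did not pass without GNE987 replicate 1 (0.0515). HMMR and ANLN, of spindle and cleavage furrow, were at 1.16 ± 0.16 and 1.21 ± 0.14. ECT2, which activates RhoA for cytokinesis, had 69.5 and 68.2 CPM with GNE987, against 71.0 and 64.1 CPM without (adjusted p = 0.836), and DLGAP5, a spindle protein, was at 0.29 ± 0.12 (adjusted p = 0.0797). DLGAP5 passed as higher without untreated replicate 1 (adjusted p = 0.0113) or 2 (0.00677), with RLE factors (0.0357), upper-quartile scaling (0.0156), the 10 CPM filter (0.0173) and DESeq2 (0.048).

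FOXM1, a transcription factor that activates G2 and mitosis genes, fell while most of the list rose. It had 26.8 and 34.8 CPM in GNE987 libraries, against 67.4 and 55.8 CPM in untreated ones and was 2.00-fold lower (SE 0.18 on the log2 scale, adjusted p = 0.00524, and 0.0562 without GNE987 replicate 1). FOXM1 shares 781 of its 4899 exonic bases with ITFG2 on the opposite strand, which had 5.78 and 6.45 CPM with GNE987, against 34.2 and 27.3 CPM without.

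PRC1, which bundles microtubules of the central spindle, and NUSAP1, a spindle assembly protein, share much of their sequence with other annotated genes on the same strand, and their levels are therefore uncertain. PRC1 shares 3181 of 5525 exonic bases with the gene AC068831.7 and had 14.1 and 12.5 CPM in GNE987 libraries, against 1.08 and 3.80 CPM in untreated ones. AC068831.7 had 7.29 and 5.58 CPM with GNE987, against 4.53 and 5.28 CPM without. PRC1 also shares 406 exonic bases with PRC1-AS1 on the opposite strand. PRC1-AS1 had 7.16 and 7.68 CPM with GNE987, against 0.0898 and 0.839 CPM without, and its part in the PRC1 counts was not tested. Leaving out untreated replicate 1 put PRC1 at 1.81 on the log2 scale. PRC1 was at 2.46 ± 0.55 on the log2 scale (adjusted p = 0.0112), at 3.67 without untreated replicate 2, and did not pass without GNE987 replicate 1 (0.075) or 2 (0.0644). NUSAP1 shares 1787 of 2875 exonic bases and had 93.9 and 84.4 CPM with GNE987, against 18.5 and 28.9 CPM without (1.91 ± 0.23, adjusted p = 0.00169). In all, 16 of the 50 genes share exonic bases with another annotated gene, and how reads there were assigned is not given. For BUB1B, CENPA, NUSAP1 and PRC1 a partner lies on the same strand, where strand could not tell the reads apart.

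Side by side, kinases rose in 5 of 5 cases (median log2 fold change 1.37), checkpoint genes in 1 of 5 (median -0.05) and kinetochore genes in 6 of 14 (median -0.59). Counting the checkpoint kinases TTK and BUB1 with the kinases gave 6 of 7 and a median of 0.90, and of the kinases named in other lists MASTL rose and PLK4, HASPIN, WEE1 and PKMYT1 fell. With library size alone the numbers that rose were 4 of 5 kinases, 0 of 5 checkpoint genes and 5 of 14 kinetochore genes. Without untreated replicate 2 they were 5, 2 and 6, and the medians were 1.68, -0.05 and -0.54. The medians without untreated replicate 1 were 1.16, 0.02 and -0.58. Of all tested genes 34.4% rose with TMM scaling and 25.8% with library size alone. The difference between the classes was not tested, and the classes are small.

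**Figure D4:**
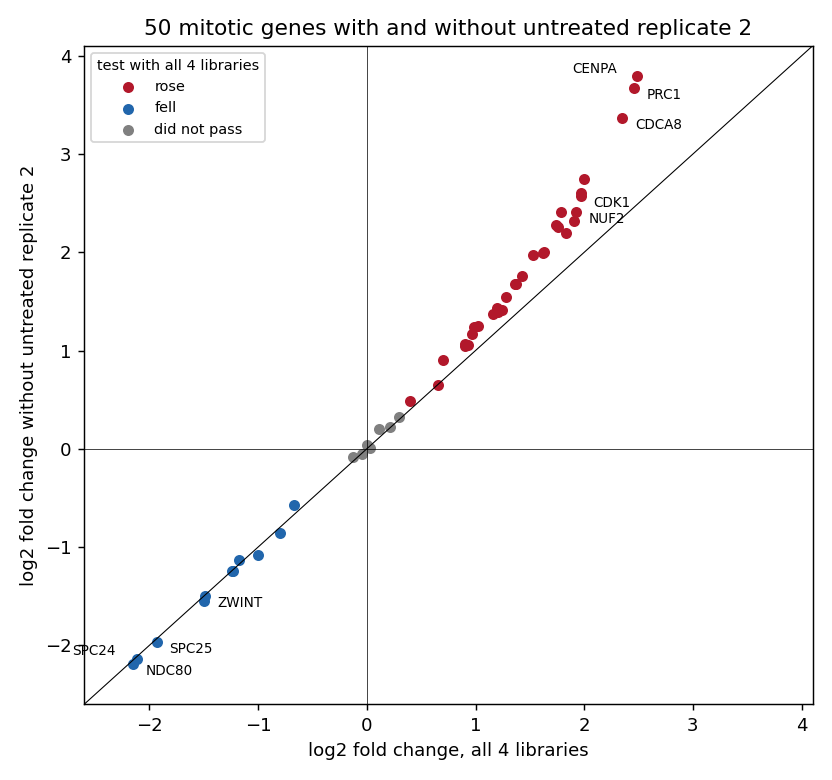
Log2 fold change of the 50 genes with all 4 libraries (x axis) and without untreated replicate 2 (y axis), with the line of equality. Genes with the largest rises lie above the line, with CENPA at 3.79 and CDCA8 at 3.37 on the y axis, while NDC80 at -2.19 lies near it.

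Other genes of the mitotic machinery were put in 5 lists. Beside their counts, 34.4% of all tested genes were called higher and 37.2% lower. Of 22 other kinetochore and centromere genes 4 rose and 13 fell (median log2 fold change -1.05). HJURP, the chaperone that deposits CENPA, had 387 and 381 CPM in GNE987 libraries, against 80.4 and 135 CPM in untreated ones (1.83 ± 0.26, adjusted p = 0.0027). MIS18A, which licenses centromeres for HJURP, averaged 14.9 ± 0.228 CPM with GNE987 and 60.9 ± 3.65 CPM without (SD, n = 2 each; -2.03 ± 0.12, adjusted p = 0.000309). CENPA and its chaperone were thus both higher and the licensing factor lower. In the MIS12 complex, MIS12 was at 1.66 ± 0.21 and its partner PMF1 at -2.57 ± 0.18 (adjusted p = 0.00195 and 0.000379), so this complex was divided as the NDC80 complex was.

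Of 8 other checkpoint genes 2 rose and 5 fell (median -1.10), among them TRIP13, which recycles MAD2, at -1.96 ± 0.14 and ZW10 at -2.14 ± 0.15, while SPDL1, which brings dynein to kinetochores, was at 1.32 ± 0.19. Of 17 APC/C subunits and regulators 3 rose and 10 fell (median -0.72). The subunits CDC16 and ANAPC13 were at -2.22 ± 0.16 and -2.05 ± 0.14, and FBXO5, the APC/C inhibitor EMI1, and UBE2S, its chain-elongating enzyme, were at 2.22 ± 0.37 and 2.11 ± 0.43. FBXO5 and UBE2S were at 2.92 and 2.94 without untreated replicate 2. Adjusted p-values of these genes were between 0.000372 and 0.00782.

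Of 9 genes that control mitotic entry 4 rose and 4 fell (median -0.31). Without GNE987 replicate 1 or 2 fewer were called lower, as were fewer of all tested genes, and the medians were -0.28 and -0.34. WEE1 and PKMYT1, kinases that inhibit CDK1, were at -0.75 ± 0.11 and -0.56 ± 0.11, and MASTL, the kinase that restrains the opposing phosphatase, was at 1.14 ± 0.17 (adjusted p = 0.00318, 0.0073 and 0.00329). Of 10 genes of the DREAM and MuvB complexes 1 rose and 6 fell (median -0.73). Here too fewer were called lower without GNE987 replicate 1 or 2, and the medians were -0.77 and -0.66. E2F4, the E2F of the repressive DREAM complex, had 16.9 and 17.0 CPM in GNE987 libraries, against 193 and 164 CPM in untreated ones (-3.40 ± 0.14, adjusted p = 0.000292), RBL2, its pocket protein, was at -1.79 ± 0.15 and LIN54, which binds the cell cycle homology element, at 1.37 ± 0.14.

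**Figure D5:**
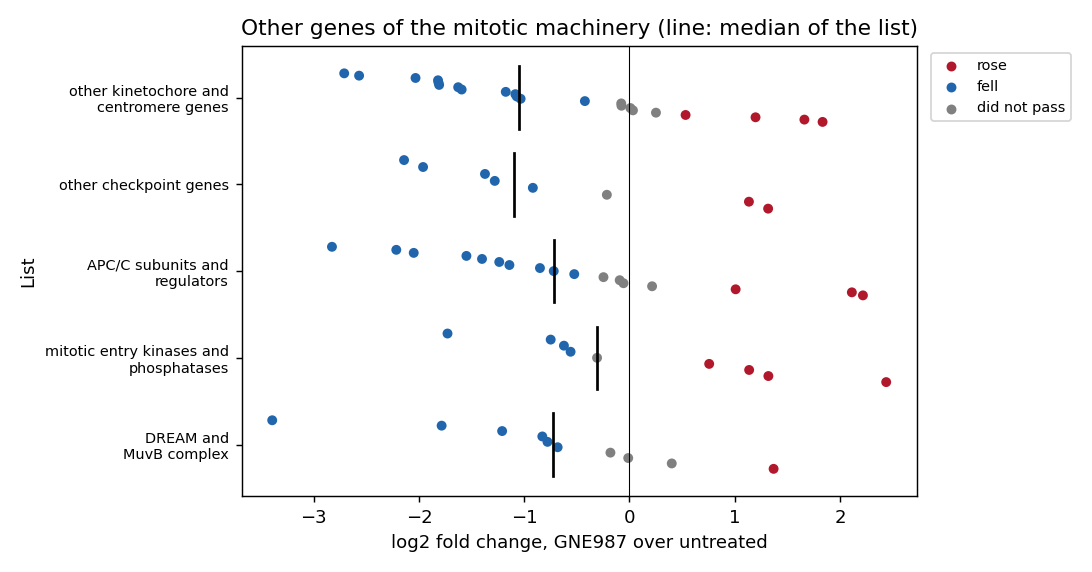
Log2 fold change of GNE987 over untreated cells for the other genes of the mitotic machinery in 5 lists, 1 point per gene, with a line at each list's median. The medians lie between -1.10 and -0.31, and E2F4 is lowest at -3.40.

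The authors' deposited table had 32 of the 50 genes higher and 10 lower at an adjusted p under 0.05, and SGO1 did not reach it. The authors' deposited table gave CDK1 a log2 fold change of 1.98 and NDC80 one of -2.15. The 32 genes that rose and the 11 that fell had a median annotated exonic length of 3710 and 3828 bases, against 4359 bases over all tested genes.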

How the data were processed

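The authors deposited, per the file headers, raw counts per gene, a normalized signal, FPKM and their own log2 fold changes with p-values. HISAT2 2.2.0 and hg38 appear in the submitters' processing notes. How reads were counted, with which annotation and strand setting, is not given there. Per the labels' protocols, libraries were made with the TruSeq RNA kit.

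Raw counts entered the tests. The filter was filterByExpr (minimum count 10, minimum total 15) and left 15910 of 26733 genes. After TMM scaling, edgeR 4.0.16 in R 4.3.3 fitted a quasi-likelihood model with 2 residual degrees of freedom. Its variance was moderated across genes, so the F tests used more degrees of freedom than these 2. Benjamini-Hochberg adjustment was over all tested genes, at an adjusted p of 0.05. The fit was also run on simulated counts with few changed genes and the same spread in both groups. These data differ in both respects, so that run does not check the calls made here. CPM values are TMM-scaled, and FPKM were used for levels of the NDC80 complex genes, and no test used them. Standard errors are the log2 fold change divided by the square root of F. Coordinates are from GENCODE 29. The 50 genes and all lists were chosen with earlier results of these data known. All 50 genes could be named in the text, and of each other list up to 3 per direction with the smallest p. Alternatives were other scalings, filters, robust estimation, DESeq2 1.42.0, a replicate block and each library left out.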

Additional observations from a re-analysis of the deposited data

How the results depend on the processing

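Of the 43 genes called, 30 (23 higher and 7 lower) kept their call and direction in every alternative that tested them. Leaving out a treated library, which leaves the spread to the untreated pair, moved the counts of calls most. Leaving out 1 library in turn gave between 6070 and 12921 changed genes against 11387, between 24 and 34 mitotic genes that rose and between 7 and 11 that fell. It gave between 4 and 6 kinetochore genes that rose and 6 and 7 that fell, between 0 and 2 checkpoint genes that rose and 1 and 2 that fell, between 4 and 5 kinases that rose, and a median of the 50 genes between 0.85 and 1.20. The median of 0.98 was 1.18 with upper-quartile scaling, 0.61 with library size alone, 0.83 without a filter and 1.15 with the 10 CPM filter. Checkpoint genes that rose numbered 2 with upper-quartile scaling, the 10 CPM filter and DESeq2, and 0 with library size alone, without a filter and with the replicate block. With library size alone CENPH was at -0.37, of opposite sign to its 0.01 with TMM scaling. The median of all tested genes shifted by -0.37 as well. The cause of these differences was not tested. The labels do not state that replicate numbers pair the libraries. Deviations of same-numbered libraries correlated with r = -0.00595 across genes, which are not independent replicates. With 2 libraries per group this correlation cannot settle whether they were paired. With the replicate number as a block 31 mitotic genes rose and 11 fell, with a median of 0.99, and 5 kinases and 6 kinetochore genes rose, 7 kinetochore and 2 checkpoint genes fell and 9801 genes changed in all. With 2 libraries per group, small changes such as that of MAD2L1 could not be settled.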
